A study of Mus musculus with 22 samples.

Results

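The inflammatory CC chemokine genes of mouse chromosome 11 were followed across 3 dendritic cell (DC) subsets and 2 tissues. The 7 genes, Ccl2, Ccl7, Ccl5, Ccl9, Ccl6, Ccl3 and Ccl4, were taken by symbol from a count table of 34047 genes, and all 7 were present and passed the filter on low counts. Accessible chromatin was taken from 225 windows of 150 bases, of 177956 in all, in an interval of chromosome 11 around both gene groups, whose first window starts at position 81902343 and whose last ends at 83789744 in the mm10 build. Of these 225 windows, 33 had a chemokine gene of the set as their closest gene within 50000 bases: 14 were closest to Ccl5, 13 to Ccl9, 4 to Ccl4, 1 to Ccl3 and 1 to Ccl7, and the set held none for Ccl2 or Ccl6. Closeness was measured to the gene body. Windows near Ccl2 or Ccl6 that lay inside another gene, such as E230016K23Rik at Ccl6, therefore went to that gene.

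CC chemokines are small secreted proteins that direct the migration of leukocytes through G protein-coupled receptors. Ccl2 and Ccl7 bind Ccr2 and recruit monocytes. Ccl3, Ccl4 and Ccl5 attract effector T cells, NK cells and macrophages, and Ccl3 and Ccl5 bind Ccr1. Ccl6 and Ccl9 are ligands of Ccr1 and belong to a group of chemokines with an extended amino terminus that rodents have and that myeloid cells make. DCs make several of these chemokines when they meet T cells or microbial products, and several of the genes respond to NF-kB signalling.

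On chromosome 11 (GENCODE M21 annotation, mm10), Ccl2 occupies chr11:82035571-82037453 and Ccl7 chr11:82045712-82047525, both on the plus strand, with starts 10.1 kb apart. After a gap of 1480.1 kb follow Ccl5 (chr11:83525778-83530518), Ccl9 (chr11:83572919-83578636), Ccl6 (chr11:83587882-83593087) and Ccl3 (chr11:83647844-83649355) on the minus strand and Ccl4 (chr11:83662584-83664683) on the plus strand. The starts of neighbouring genes in this second group lie 47.1, 15.0, 60.0 and 14.7 kb apart. Ccl2 is overlapped on the opposite strand by Gm17268 and Ccl6 by E230016K23Rik. Whether reads were counted by strand is not given in the sources used here, so reads from bases that both genes of a pair cover cannot be told apart.

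The cells came from naive Tbx21 RFP-cre knock-in reporter mice of 6 to 10 weeks, homozygous for the allele, in every group. Each RNA library pooled sorted cells of 2 mice, and the number of mice behind an ATAC library is not given in the sources used here. Conventional DCs without T, B, Ly6C or CD64 staining were sorted into cDC1s (XCR1+CD11b-), T-bet+ cDC2s (CD11b+XCR1-, RFP+) and T-bet- cDC2s (CD11b+XCR1-, RFP-), so the subsets rest on a reporter of the Tbx21 locus and not on T-bet protein. RNA-seq covered spleen (3 libraries of each subset) and mesenteric lymph node (MLN, 3 libraries of cDC1 and 2 of each cDC2 subset), 16 libraries in all, and ATAC-seq covered spleen with 2 libraries of each subset.

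The libraries held 20993220 to 29006549 counts (RNA) and 7270164 to 10081555 counts in windows (ATAC). RNA levels are given as CPM (counts divided by the TMM-normalized library total in units of 1e6 counts), and Tbx21 itself stood at 17.2 to 24.9 CPM in spleen T-bet+ cDC2s against 0.289 to 2.38 CPM in spleen T-bet- cDC2s, and at 2.93 to 7.19 against 0.538 to 0.918 CPM in MLN. Xcr1 reached 445 to 1219 CPM in cDC1s and at most 34.01 CPM in any cDC2 library, which was a T-bet+ library of MLN. Within spleen, 3 libraries (T-bet- cDC2 replicates 1 and 2 and cDC1 replicate 3) stood apart by a negative correlation of gene levels with the GC content of the most GC-rich 100-base stretch of a transcript (rho -0.457 to -0.297, against 0.186 to 0.325 in the other 6, which include all T-bet+ libraries). In MLN, rho was -0.312 to -0.036 in 4 libraries (T-bet- replicate 1, both T-bet+ libraries and cDC1 replicate 1). It was 0.204 to 0.249 in the other 3, and no MLN fit had this class as a term. The p-values below measure the spread between these libraries, and in bulk samples fewer expressing cells cannot be told apart from less RNA per cell. Statements that groups of 2 or 3 libraries do not overlap describe these libraries alone. The share of all genes separated in this way was not counted.

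**Figure D1:**
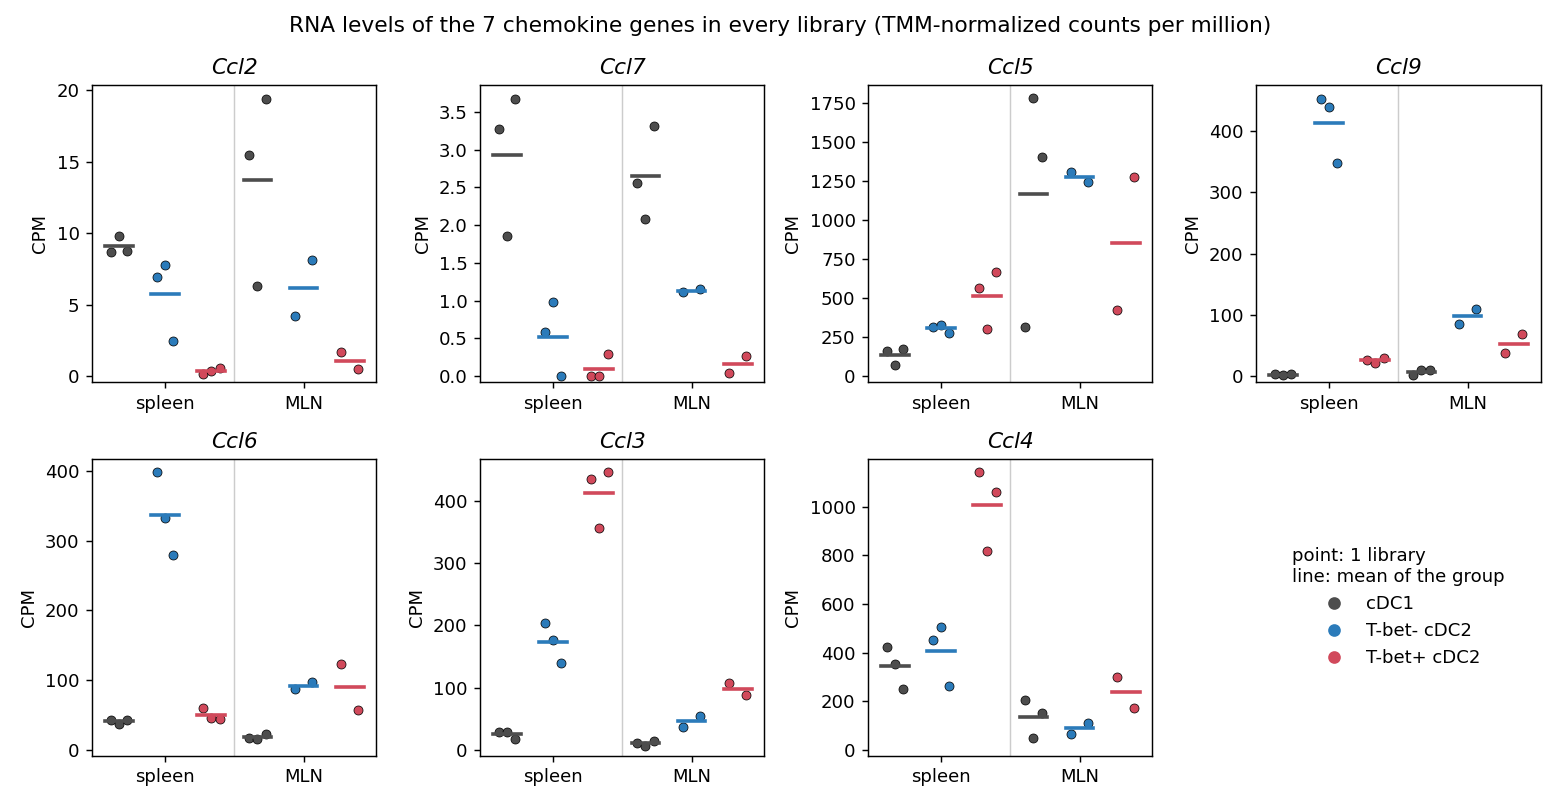
RNA level of each chemokine gene in every library, in CPM, by tissue and DC subset. Points are single libraries and lines are group means. Ccl3 and Ccl4 are highest in spleen T-bet+ cDC2s, Ccl6 and Ccl9 in spleen T-bet- cDC2s, Ccl2 and Ccl7 are lowest in T-bet+ cDC2s of both tissues, and most MLN libraries lie above the spleen libraries for Ccl5.

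Which chemokines filled each subset differed widely. Levels were divided by the length of the longest annotated transcript of each gene, and which transcript was expressed was not tested. Per kb of that transcript, Ccl4 made up 53.1% of the mean summed level of the 7 genes in spleen T-bet+ cDC2s, Ccl5 26.7% and Ccl3 18.7%. Spleen T-bet- cDC2s had a more mixed makeup, with Ccl4 at 36.7%, Ccl5 at 27.4%, Ccl6 at 13.9%, Ccl3 at 13.5% and Ccl9 at 8.21%. The place of Ccl9 there rests on the length used, 3006 bases against 660 for Ccl4. In CPM, Ccl9 (414) and Ccl4 (406) were the highest of the 7 genes in that group. Spleen cDC1s were carried by Ccl4 (65.2%) and Ccl5 (25.5%). In MLN, Ccl5 alone gave 87.6% (cDC1), 86.5% (T-bet- cDC2) and 69.2% (T-bet+ cDC2). Before correction for length, the 7 genes summed to 2009 CPM in spleen T-bet+ cDC2s, 1643 CPM in spleen T-bet- cDC2s and 559 CPM in spleen cDC1s, and to 1331, 1609 and 1356 CPM in the same subsets of MLN.

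**Figure D2:**
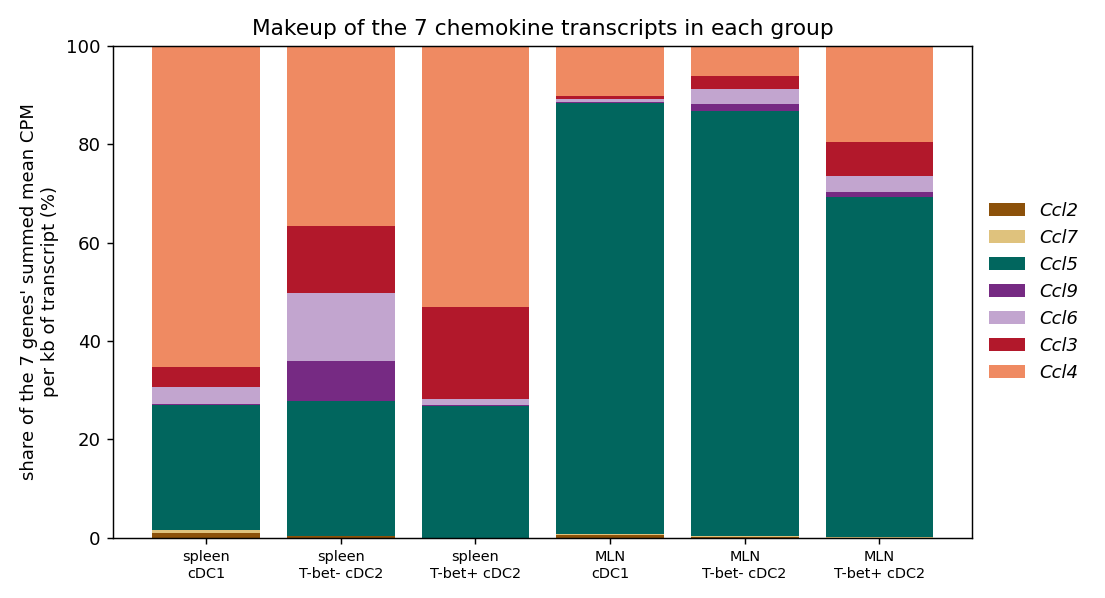
Share of each gene in the summed mean level of the 7 chemokine genes (CPM per kb of the longest transcript, percent), 1 bar per group. Ccl4 is the widest band in the 3 spleen groups and Ccl5 in the 3 MLN groups, and the bands of Ccl6 and Ccl9 are widest in spleen T-bet- cDC2s.

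Ordered by mean over the 6 groups, Ccl3 was the member whose ranges separated every pair of neighbours: spleen T-bet+ cDC2s (412 ± 48.4 CPM, SD, n = 3), spleen T-bet- cDC2s (173 ± 32.2, n = 3), MLN T-bet+ cDC2s (97.8 ± 13.1, n = 2), MLN T-bet- cDC2s (45.8 ± 13.2, n = 2), spleen cDC1s (24.9 ± 6.34, n = 3) and MLN cDC1s (10.3 ± 4.37, n = 3). Ccl4 was highest in spleen T-bet+ cDC2s (1007 ± 168, n = 3), and each neighbouring pair among the other 5 groups overlapped, from 406 ± 128 in spleen T-bet- cDC2s (n = 3) to 88.5 ± 30.3 in MLN T-bet- cDC2s (n = 2). Ccl5 ran from 1278 ± 46.1 in MLN T-bet- cDC2s (n = 2) to 136 ± 59.1 in spleen cDC1s (n = 3), and only spleen cDC1s were separated from their neighbour. Ccl9 had separate steps, from 414 ± 57 in spleen T-bet- cDC2s (n = 3) over 97.9 ± 17.2 in MLN T-bet- (n = 2), 53.2 ± 22.4 in MLN T-bet+ (n = 2) and 25.8 ± 3.85 in spleen T-bet+ cDC2s (n = 3) to the overlapping cDC1s of MLN (7.29 ± 4.63, n = 3) and spleen (2.49 ± 0.64, n = 3). Ccl6 had the same top group (337 ± 59.8, n = 3), then MLN T-bet-, MLN T-bet+ and spleen T-bet+ cDC2s, which overlapped in sequence, then spleen and MLN cDC1s, each separated. For Ccl2 and Ccl7 the cDC1s of both tissues came first and overlapped (Ccl2 13.8 ± 6.71 in MLN and 9.09 ± 0.65 in spleen, n = 3 each), and T-bet+ cDC2s of both tissues came last and overlapped (Ccl2 1.06 ± 0.84, n = 2, and 0.372 ± 0.211, n = 3).

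In spleen, T-bet+ cDC2s were compared with T-bet- cDC2s to find what separates the cDC2 subsets. Of the 7 genes, 5 passed an adjusted p of 0.05 in edgeR's quasi-likelihood test (2 higher and 3 lower in T-bet+ cDC2s), where 5.38% of all 14377 genes tested passed. Ccl3 and Ccl4 were higher, the Ccr1 ligands Ccl6 and Ccl9 and the Ccr2 ligand Ccl2 were lower, and Ccl5 and Ccl7 did not pass.

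Ccl3 (MIP-1 alpha) stood at 435, 357 and 445 CPM in the spleen T-bet+ libraries and at 203, 177 and 139 CPM in the T-bet- libraries. Ccl4 (MIP-1 beta), its divergently placed neighbour, stood at 1143, 819.7 and 1059 CPM and at 451, 505 and 262 CPM. For both genes every T-bet+ library lay above every T-bet- library. Ccl3 was 2.39-fold higher (log2 fold change 1.26 ± 0.24 SE, edgeR adjusted p = 0.0179) and Ccl4 2.48-fold higher (1.31 ± 0.29, edgeR adjusted p = 0.03). These calls were close to the threshold. Without any one of the T-bet+ libraries both were lost, as was Ccl3 without T-bet- replicate 2 and Ccl4 without T-bet- replicate 1 or cDC1 replicate 2 (adjusted p 0.0509 to 0.0792 for Ccl3 and 0.0627 to 0.114 for Ccl4, with fold changes of the same sign), and both missed it when the GC-related library class was a term of the fit (adjusted p 0.0659 and 0.0692). Ccl5 (RANTES) stood at 566, 304 and 669 CPM against 318, 329 and 274 CPM, so the groups overlapped, and its difference did not pass (0.74 ± 0.38, adjusted p = 0.34).

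Ccl9 (MIP-1 gamma) had the lowest adjusted p of the 7 genes in this comparison. It stood at 26, 21.9 and 29.6 CPM in the T-bet+ libraries and at 453, 440.1 and 349 CPM in the T-bet- libraries. Its neighbour Ccl6 stood at 60, 45.9 and 44.8 CPM against 398, 333 and 279 CPM. Neither gene had overlapping groups. Ccl9 was 16-fold lower in T-bet+ cDC2s (log2 fold change -4.00 ± 0.26, edgeR adjusted p = 7.14e-05) and Ccl6 6.69-fold lower (-2.74 ± 0.22, adjusted p = 0.00024), and both calls were kept without each library in turn and with library class in the fit.

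Ccl2 (MCP-1), a monocyte attractant, was 15.2-fold lower in T-bet+ cDC2s (-3.92 ± 0.58, edgeR adjusted p = 0.00492), at 0.158, 0.375 and 0.581 CPM against 6.94, 7.76 and 2.46 CPM. The T-bet+ libraries held 4 to 14 Ccl2 reads each, all below the T-bet- libraries. Ccl7 (MCP-3), next to it, had no reads in 2 of the 3 T-bet+ libraries and 7 in the third, and 0.578, 0.977 and 0 CPM in the T-bet- libraries. A difference in Ccl7 was not detectable at this depth (-2.36 ± 1.44, adjusted p = 0.432).

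The promoters of the 3 genes of this group that RefSeq's promoter set (GRCm38.p6, the same assembly as mm10) covers are shown because Ccl9 and Ccl6 differed together between the cDC2 subsets while Ccl3 differed in the opposite direction. Ccl2, Ccl7, Ccl4 and Ccl5 had no entry. Each runs from 250 bases before to 50 bases after the gene's start in RefSeq, at chr11:83578587-83578886 (Ccl9), chr11:83593038-83593337 (Ccl6) and chr11:83649329-83649628 (Ccl3), all on the minus strand, and capitals mark matches to the motifs searched. For Ccl3 the RefSeq start lies upstream of the GENCODE start used elsewhere in the text.
Ccl9 promoter: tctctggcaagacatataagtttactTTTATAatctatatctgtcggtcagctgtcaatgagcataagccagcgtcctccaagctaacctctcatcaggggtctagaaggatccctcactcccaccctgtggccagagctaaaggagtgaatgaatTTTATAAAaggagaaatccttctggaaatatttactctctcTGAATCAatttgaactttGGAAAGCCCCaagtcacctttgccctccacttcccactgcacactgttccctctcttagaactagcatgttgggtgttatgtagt
Ccl6 promoter: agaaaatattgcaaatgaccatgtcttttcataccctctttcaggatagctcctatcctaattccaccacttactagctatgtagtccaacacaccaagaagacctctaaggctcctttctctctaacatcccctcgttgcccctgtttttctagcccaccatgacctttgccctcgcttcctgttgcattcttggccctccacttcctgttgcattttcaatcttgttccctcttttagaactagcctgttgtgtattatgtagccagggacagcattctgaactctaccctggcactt
Ccl3 promoter: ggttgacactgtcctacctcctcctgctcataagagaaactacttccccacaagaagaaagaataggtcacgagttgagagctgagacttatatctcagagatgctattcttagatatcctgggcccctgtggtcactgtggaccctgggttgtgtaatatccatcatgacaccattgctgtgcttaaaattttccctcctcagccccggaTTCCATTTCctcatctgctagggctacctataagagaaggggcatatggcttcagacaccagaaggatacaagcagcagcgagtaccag
The motifs were searched on both strands: the NF-kB consensus by name, AP-1 (TGANTCA), IRF (GAAANNGAA), PU.1 (GAGGAAGT), C/EBP (TTGCNNAA), Runx (TGTGGTT), T-box (AGGTGTNA) and the TATA box (TATAAA). The Ccl9 promoter held an NF-kB match beginning at position -35 from the start, an AP-1 match at -53 and TATA matches at -224, -94 and -92, of which the last pair overlap. The Ccl3 promoter held an IRF match at -39 from the RefSeq start, and these letters were not found in the Ccl6 promoter. Of all 32851 promoters of this length, 8.46% held the NF-kB motif, 7.81% AP-1, 8.56% IRF and 13.6% the TATA box, so that matches of these kinds are common.

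Compared with spleen cDC1s, 6 of the 7 genes passed in T-bet+ cDC2s (4 higher and 2 lower, edgeR), where 18.2% of all genes passed. Ccl3 stood at 29.04, 28.1 and 17.6 CPM in the cDC1 libraries and was 16.6-fold higher in T-bet+ cDC2s (4.05 ± 0.27, adjusted p = 1.09e-05). Ccl9 stood at 2.96, 1.77 and 2.76 CPM in cDC1s, the lowest level of the gene in any group, and was 10.4-fold higher in T-bet+ cDC2s (3.37 ± 0.26, adjusted p = 2.83e-05). The T cell attractants Ccl4 and Ccl5 were higher as well. Ccl4 (425, 353 and 251 CPM in cDC1s) was 2.94-fold higher (1.56 ± 0.29, adjusted p = 0.00476) and Ccl5 (163, 68.2 and 177 CPM in cDC1s) 3.78-fold higher (1.92 ± 0.39, adjusted p = 0.00768).

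The Ccr2 ligands ran the other way between these subsets. Ccl2 stood at 8.67, 9.84 and 8.75 CPM in cDC1s and was 24.1-fold lower in T-bet+ cDC2s (-4.59 ± 0.59, adjusted p = 0.000609). Ccl7 stood at 3.28, 1.85 and 3.68 CPM in cDC1s, with 45 to 81 reads a library, against 7 reads in all T-bet+ libraries together (-4.88 ± 1.48, adjusted p = 0.0481). The Ccl7 call was lost without any of 7 of the 9 libraries (all except T-bet- replicate 3 and T-bet+ replicate 3, adjusted p 0.0532 to 0.137). Ccl6 did not pass, at 42.3, 37.7 and 42.5 CPM in cDC1s against 44.8 to 60 CPM in T-bet+ cDC2s (0.30 ± 0.21, adjusted p = 0.376), although the ranges did not meet.

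T-bet- cDC2s differed from spleen cDC1s in Ccl9, Ccl6 and Ccl3. Of the 7 genes, 3 were higher and none was lower, where 15.9% of all genes passed in edgeR. Ccl9 was 166-fold higher (7.37 ± 0.31, adjusted p = 3.22e-06), Ccl6 8.25-fold higher (3.04 ± 0.22, adjusted p = 2.08e-05) and Ccl3 6.95-fold higher (2.80 ± 0.26, adjusted p = 7.93e-05), and all 3 calls were kept without each library in turn. Ccl4 had overlapping groups (0.25 ± 0.28, adjusted p = 0.616), and Ccl2 did not pass (-0.67 ± 0.49, adjusted p = 0.425), although every T-bet- library lay below every cDC1 library. Ccl5 did not pass (1.17 ± 0.38, adjusted p = 0.069), although every T-bet- library lay above every cDC1 library, and it did under DESeq2 (adjusted p = 0.0398).

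**Figure D3:**
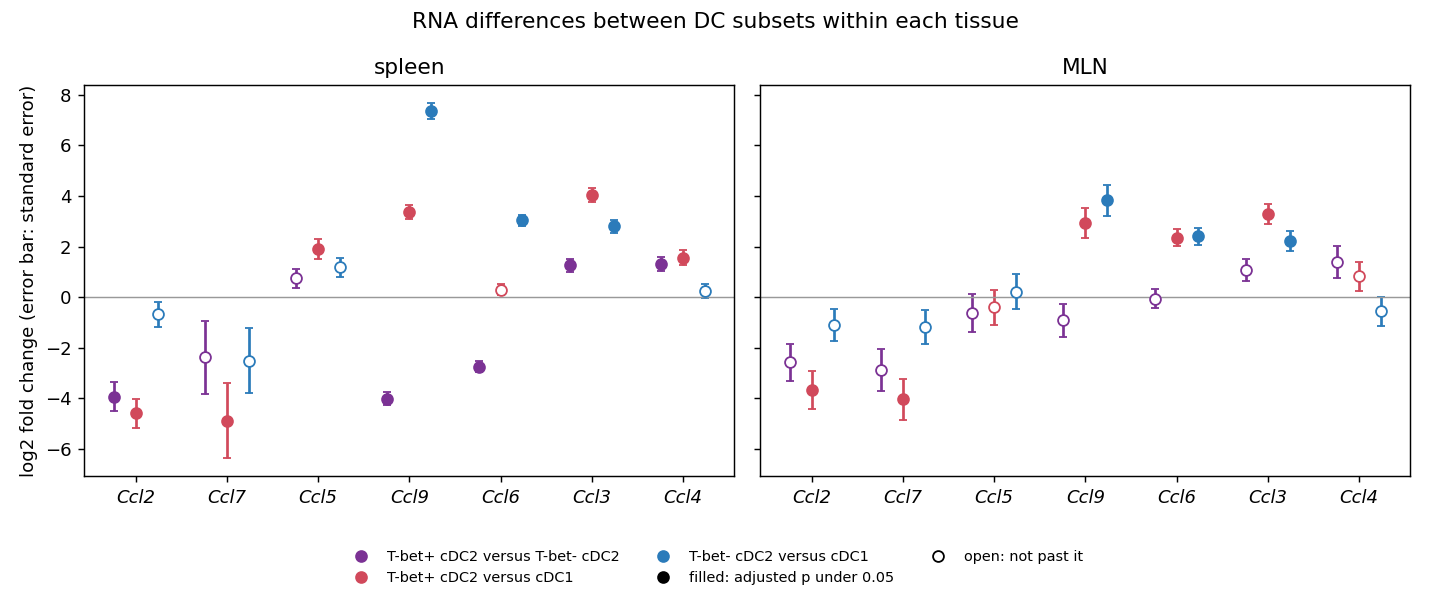
Log2 fold change of each chemokine gene between DC subsets within spleen (left) and MLN (right), with standard errors. Filled points passed an adjusted p of 0.05 in edgeR. Ccl9 spans from -4.00 (T-bet+ against T-bet- cDC2s) to 7.37 (T-bet- cDC2s against cDC1s) in spleen, and no purple point (T-bet+ against T-bet- cDC2s) is filled in MLN.

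In MLN the same comparisons rest on 2 libraries of each cDC2 subset. Between T-bet+ and T-bet- cDC2s, 0 of the 7 genes passed, and 0% of all 15298 genes tested did so in edgeR, although 1444 genes, 3 of the 7 among them, had an unadjusted p under 0.05. DESeq2 called 328 genes, of which Ccl2 was the member. Ccl3 (107 and 88.5 CPM in T-bet+ against 36.5 and 55.1 CPM in T-bet- cDC2s) and Ccl4 (301 and 173 against 67.1 and 109.9 CPM) did not overlap and had log2 fold changes of 1.07 ± 0.43 and 1.39 ± 0.64 (adjusted p = 0.5 and 0.558). Ccl2 (1.66 and 0.463 against 4.24 and 8.15 CPM, -2.57 ± 0.74) and Ccl7 (0.038 and 0.27 against 1.11 and 1.15 CPM, -2.88 ± 0.82) were separated in the other direction. With 2 libraries in each group, such separation is easily met without a difference, and it is no test. Ccl6 and Ccl9 differed less in level between these subsets than in spleen, and the test of that difference between tissues did not pass in edgeR. Ccl6 overlapped, at 123 and 57.4 CPM in T-bet+ against 86.8 and 97.1 CPM in T-bet- cDC2s (-0.06 ± 0.37, adjusted p = 0.978), and Ccl9 stood at 37.3 and 69 against 85.7 and 110.1 CPM (-0.91 ± 0.65, adjusted p = 0.737).

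Against MLN cDC1s, 5 of the 7 genes passed in T-bet+ cDC2s (3 higher, 2 lower), where 6.22% of all genes passed in edgeR. Ccl3 (11.5, 5.42 and 13.9 CPM in cDC1s) was 9.68-fold higher (3.28 ± 0.40, adjusted p = 0.00431) and Ccl6 (17.2, 15 and 22.1 CPM in cDC1s) 5.08-fold higher (2.35 ± 0.34, adjusted p = 0.00792), and both were kept without each library. The other 3 calls were less firm, in fits where the calls over all genes moved as well. Those were 952 with all libraries, 522 without cDC1 replicate 2 and 391 without cDC1 replicate 3. Ccl9 was 7.56-fold higher (1.95, 9.84 and 10.1 CPM in cDC1s, 2.92 ± 0.60, adjusted p = 0.029), Ccl2 12.7-fold lower (15.5, 6.33 and 19.4 CPM in cDC1s, -3.67 ± 0.74, adjusted p = 0.0274) and Ccl7 16.4-fold lower (2.56, 2.08 and 3.31 CPM in cDC1s, -4.04 ± 0.81, adjusted p = 0.0272). Each was lost without 5 or 6 of the 7 libraries, and all 3 were kept only without cDC1 replicate 1. Without cDC1 replicate 3 the adjusted p was 0.087 for Ccl2, 0.0887 for Ccl7 and 0.0768 for Ccl9. Leaving out a cDC2 library left 1 library in its group. Between T-bet- cDC2s and cDC1s of MLN, 3 of the 7 passed, all higher, where 5.79% of all genes did: Ccl3 (2.21 ± 0.39, adjusted p = 0.0174), Ccl6 (2.41 ± 0.34, adjusted p = 0.00753) and Ccl9 (3.83 ± 0.61, adjusted p = 0.0123). All 3 of these calls were lost without either T-bet- library (adjusted p 0.0648 to 0.13). Ccl5 overlapped in all 3 comparisons of MLN subsets.

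Tissue was compared within each subset in a fit of all 16 libraries. Whether spleen and MLN libraries were prepared together is not given in the sources used here, so tissue and preparation cannot be told apart. In T-bet- cDC2s, 4 of the 7 genes were higher in spleen and none lower, where 5.95% of all 16795 genes passed in edgeR: Ccl3 3.78-fold (1.92 ± 0.38, adjusted p = 0.0103), Ccl4 4.59-fold (2.198 ± 0.52, adjusted p = 0.0257), Ccl6 3.66-fold (1.87 ± 0.32, adjusted p = 0.0051) and Ccl9 4.23-fold (2.08 ± 0.53, adjusted p = 0.0338). In T-bet+ cDC2s, 2 of the 7 were higher in spleen, where 5.09% of all genes passed: Ccl3 4.22-fold (2.08 ± 0.38, adjusted p = 0.00981) and Ccl4 4.25-fold (2.09 ± 0.52, adjusted p = 0.0368). In cDC1s, 2 were higher in spleen and 2 lower, where 11.7% of all genes passed: Ccl3 (1.276 ± 0.32, adjusted p = 0.0224) and Ccl6 (1.17 ± 0.27, adjusted p = 0.0153) against Ccl5 (-3.11 ± 0.59, adjusted p = 0.00634) and Ccl9 (-1.55 ± 0.47, adjusted p = 0.0453). Ccl3 and Ccl4 thus had every spleen library above every MLN library in all 3 subsets, Ccl4 in cDC1s without passing the test (1.35 ± 0.44, adjusted p = 0.0578). How many of all genes were separated in this way was not counted.

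The tissue calls depended on single libraries of MLN and of spleen, and calls over all genes moved in these fits as well. In cDC1s the latter lay between 535 (without spleen cDC1 replicate 2) and 2948 (without MLN cDC1 replicate 1), against 1961 with all libraries. Leaving out an MLN cDC2 library left 1 library in its group. Without MLN T-bet- replicate 1 none of the 4 calls in T-bet- cDC2s was kept (adjusted p 0.0741 for Ccl6, 0.145 for Ccl3, 0.252 for Ccl4 and 0.283 for Ccl9), and without MLN T-bet- replicate 2, spleen T-bet- replicate 1 or spleen T-bet- replicate 2 the calls of Ccl4 and Ccl9 were lost. Without MLN T-bet+ replicate 2 both calls in T-bet+ cDC2s were lost (adjusted p 0.179 for Ccl3 and 0.421 for Ccl4), and the Ccl4 call there was also lost without any spleen T-bet+ library, MLN cDC1 replicate 3 or spleen cDC1 replicate 2. In cDC1s the Ccl5 call alone was kept without each of the 16 libraries. The Ccl9 call there was lost without any of 12 libraries (adjusted p 0.0514 to 0.174), the Ccl3 call without MLN cDC1 replicate 2 or spleen cDC1 replicate 1 or 2 (0.0735 to 0.0848) and the Ccl6 call without MLN cDC1 replicate 2 (0.0815). All fold changes kept their sign.

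The tissue differences of Ccl6 and Ccl9 had opposite signs in the cDC2 subsets, without passing in T-bet+ cDC2s. Ccl9 was above its MLN level in every spleen T-bet- library and below it in every spleen T-bet+ library (log2 spleen against MLN 2.08 ± 0.53 and -1.04 ± 0.48, the latter with adjusted p = 0.183), and Ccl6 differed by 1.87 in T-bet- cDC2s and by -0.85 ± 0.29 in T-bet+ cDC2s (adjusted p = 0.0956). The test of the difference between the subsets gave -2.72 ± 0.43 for Ccl6 (edgeR adjusted p = 0.0913) and -3.12 ± 0.71 for Ccl9 (adjusted p = 0.523), so 0 of the 7 genes passed. Both genes had an unadjusted p under 0.05, DESeq2 called both (39 genes in all), and 0.00595% of all genes passed in edgeR, which was 1 gene.

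Ccl5, which attracts effector T cells, varied between MLN libraries of the same subset. It stood at 317, 1783 and 1409 CPM in the MLN cDC1 libraries, at 424 and 1279 CPM in MLN T-bet+ cDC2s and at 1311 and 1246 CPM in MLN T-bet- cDC2s, against 68.2 to 669 CPM over the 9 spleen libraries. The low libraries were replicate 1 of cDC1 and replicate 1 of T-bet+ cDC2. Both were of the lower GC-related class, as were T-bet+ replicate 2 and T-bet- replicate 1, which were not low in Ccl5. In cDC1s Ccl5 was 8.6-fold lower in spleen, in T-bet- cDC2s it was lower in every spleen library without passing in edgeR (-2.06 ± 0.60, adjusted p = 0.0591, and 0.0125 in DESeq2), and in T-bet+ cDC2s the tissues overlapped (-0.73 ± 0.60, adjusted p = 0.447). Genes of mature migratory DCs (Ccr7, Fscn1, Ccl22, Ccl17, Cacnb3, Il4i1, Socs2 and Relb) moved with it: their summed level was 4246, 15626 and 15214 CPM in the same MLN cDC1 libraries, 3135 and 11458 CPM in T-bet+ cDC2s and 12395 and 13851 CPM in T-bet- cDC2s, against 1683 to 5718 CPM in spleen. Their part in the Ccl5 level was not tested. Of 7 genes of this list tested, 6 were lower in spleen than MLN among cDC1s, 5 among T-bet- cDC2s and 4 among T-bet+ cDC2s.

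**Figure D4:**
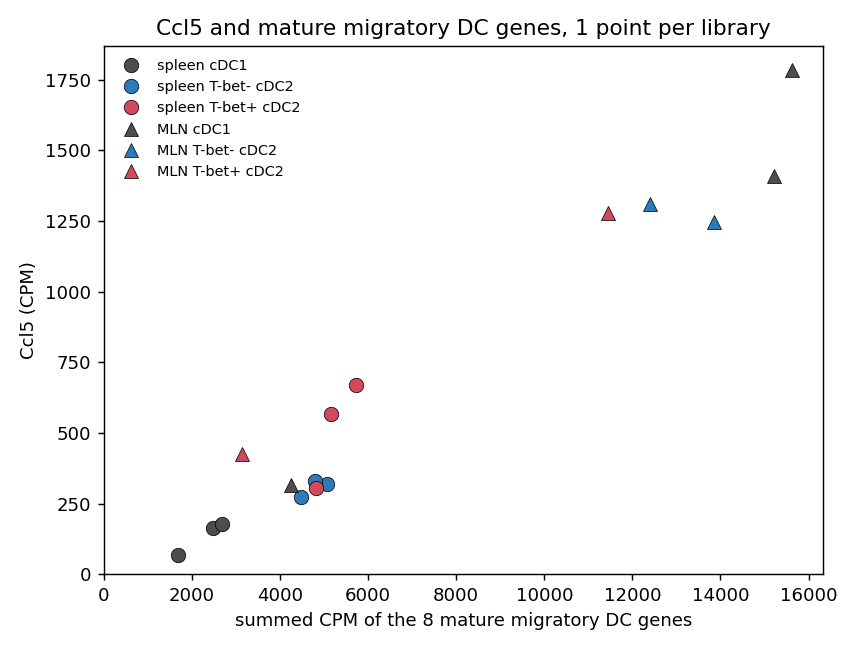
Ccl5 level (CPM) against the summed level of 8 genes of mature migratory DCs (CPM), 1 point per RNA library, with circles for spleen, triangles for MLN and colours for subsets. The 5 MLN libraries at 11458 CPM or more on the x axis lie at 1246 to 1783 CPM of Ccl5, and the other 11 libraries lie at 669 CPM or less.

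Markers of monocytes, macrophages and neutrophils were also at lower summed levels in T-bet+ than T-bet- cDC2s of spleen, as Ccl6 and Ccl9 were. Of 11 monocyte and macrophage markers tested, 8 (Fcgr1, Mertk, Vcam1, Spic, Hmox1, C1qa, C1qb and C1qc) were lower in spleen T-bet+ than T-bet- cDC2s, with a median log2 fold change of -2.39 over the list against -0.01 over all genes. The 12 markers summed to 491 to 572 CPM in spleen T-bet+ cDC2s, 1201 to 1699 CPM in T-bet- cDC2s and 198 to 285 CPM in cDC1s. In MLN they summed to 397 to 408, 1461 to 2501 and 95.8 to 237 CPM in the same order, while the cDC2 subsets there differed by -0.06 in Ccl6 and by -0.91, without overlap, in Ccl9. Neutrophil markers (9 genes, among them S100a8 and S100a9) summed to 67.4 to 83.8 CPM in spleen T-bet+ cDC2s, 190 to 204 CPM in T-bet- cDC2s and 20 to 35 CPM in cDC1s. In MLN they summed to 5.95 to 8.45, 46.2 to 65.9 and 0.446 to 12.5 CPM in the same order. Of 8 tested, 1, Csf3r, was lower in spleen T-bet+ than T-bet- cDC2s. No marker of either list was at 0 in all libraries of the spleen cDC2 groups, and their part in the Ccl6 and Ccl9 levels was not tested. Markers of T and NK cells, which are known makers of Ccl3, Ccl4 and Ccl5, summed to 1.13 to 8.72 CPM over all groups, and to 1.5 to 2.37 CPM in spleen T-bet+ cDC2s, where 2 of the 10 (Cd3g and Gzmb) were at 0 in every library, and their part in these levels was not tested. Those of basophils and mast cells summed to at most 0.53 CPM.

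NF-kB and immediate early response genes, which can be induced while tissue is processed, were compared beside Ccl3 and Ccl4. The 15 genes of this list (among them Nfkbia, Tnf, Il1b, Fos and Egr1) summed to 24090 to 24620 CPM in spleen T-bet+ cDC2s, 15510 to 23050 CPM in spleen T-bet- cDC2s, 6194 to 11100 CPM in spleen cDC1s and 4641 to 15490 CPM in MLN. Between spleen T-bet+ and T-bet- cDC2s none of the 15 was higher and 1, Cxcl2, was lower (-1.67 ± 0.39, adjusted p = 0.0388). Against spleen cDC1s, 5 of the 15 were higher in either cDC2 subset. Between spleen and MLN, Il1b was higher in spleen in all 3 subsets and Tnf in T-bet- cDC2s, and the other genes of the list did not pass. Their part in the Ccl3 and Ccl4 levels was not tested.

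RNA of the receptors Ccr1 and Ccr2 was measured in the same libraries. Ccr2, the receptor of Ccl2 and Ccl7, stood at 1.47, 2.89 and 2.87 CPM in T-bet+ cDC2s, 342, 123 and 225 CPM in T-bet- cDC2s and 24.9, 38.8 and 67.7 CPM in cDC1s (T-bet+ against T-bet- -6.57 ± 0.59, edgeR adjusted p = 0.00038). Of the spleen subsets, T-bet+ cDC2s thus had the lowest levels of Ccl2 and of its receptor Ccr2. Ccr1, the receptor of Ccl3, Ccl5, Ccl6 and Ccl9, stood at 5.98, 8.63 and 3.78 CPM in T-bet+ cDC2s against 25.1, 16.8 and 14.5 CPM in T-bet- cDC2s, without overlap (-1.61 ± 0.42, adjusted p = 0.056), and was 7.7-fold and 23.6-fold higher than in cDC1s in the respective subsets (adjusted p = 0.00173 and 0.000187).

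The other CC ligand genes of the same cluster were nearly silent in spleen. Ccl1, Ccl8, Ccl11 and Ccl12 lie between Ccl7 and Ccl5, and none was tested in spleen, where they summed to at most 0.34 CPM in a library. In MLN, Ccl12, like Ccl2 a Ccr2 ligand, stood at 11.3 and 2.83 CPM in T-bet- cDC2s, at 0.038 and 0.463 CPM in T-bet+ cDC2s and at 0.081, 0 and 0 CPM in cDC1s, where the libraries held 2 reads in all. Its difference between T-bet- cDC2s and cDC1s passed (7.88 ± 1.33, edgeR adjusted p = 0.0146).

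Across all 16 libraries, the genes most like each member by Pearson correlation of log2 CPM, among 11086 genes whose normalized counts averaged 50 or more, are given as a description, since the libraries share tissues and subsets. They were Il1rn and Ctss (r = 0.982 each) and Nxpe4 for Ccl9, Hdc (0.969), Prss30 and Rilpl2 for Ccl4, and Tnfsf14 and Coq10b (0.962 each) for Ccl3. For Ccl5 they were RP23-205D10.4 (0.97), Eno3 and Gadd45b, for Ccl6 RP24-417N13.7 (0.935), G6pdx and Igsf6, and for Ccl2 Plin2 (0.929), Micall2 and Ptpn7. Ccl7, with a mean of 32.7 normalized counts, was not ranked. Among the members, the neighbours Ccl6 and Ccl9 had r = 0.855 and the neighbours Ccl3 and Ccl4 r = 0.771, while Ccl2 and Ccl3 had r = -0.745.

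Accessible chromatin in spleen was next compared near these genes, with edgeR calls needing both an adjusted p under 0.01 and a log2 fold change beyond 0.5 in either direction. Of the 33 windows closest to a member, none of which was assigned to Ccl2 or Ccl6, 27 were tested. Between T-bet+ and T-bet- cDC2s, 0 of the 27 were called by edgeR or DESeq2, 12 had an unadjusted p under 0.05 (as had 39233 of all 166547 windows tested), and 6.28% of all windows tested were called. Between T-bet+ cDC2s and cDC1s, 6 of the 27 (22.2%; 5 higher, 1 lower) were called, where 23% of all windows were. Between T-bet- cDC2s and cDC1s, 3 of the 27 (11.1%; 2 higher, 1 lower) were called, where 17.9% of all windows were. DESeq2 called 3 of these 6 windows and 1 of these 3. The shares of called member windows were thus near or under those of all windows.

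Ccl5 was the member with a window across its start site. That window (chr11:83530499-83530648, centre at -55 bases, negative meaning upstream) and stood at 17.4 and 10.04 CPM of reads in windows in T-bet+ cDC2s, 7.27 and 7.9 CPM in T-bet- cDC2s and 5.11 and 5.62 CPM in cDC1s. The T-bet+ libraries lay above all others. It was higher in T-bet+ cDC2s than cDC1s (1.35 ± 0.27, adjusted p = 4.62e-05, and 0.0229 without T-bet+ replicate 1) and did not pass against T-bet- cDC2s (0.85 ± 0.26, adjusted p = 0.0198). About 6 kb upstream of Ccl5, the overlapping windows at -6072 and -6162 bases were also higher in T-bet+ cDC2s than cDC1s (1.03 and 1.09, adjusted p = 0.00751 and 0.00713), and both calls were lost without T-bet+ replicate 1 or cDC1 replicate 1 (adjusted p 0.0615 to 0.227), under DESeq2 and with scaling by library size alone.

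A window at -14256 bases from the Ccl5 start (chr11:83544700-83544849) ran the other way, at 0.76 and 0.21 CPM in T-bet+ cDC2s, 1.36 and 1.72 CPM in T-bet- cDC2s and 2.85 and 2.35 CPM in cDC1s (T-bet+ against cDC1 -2.40 ± 0.57, adjusted p = 0.000453, 0.0167 in DESeq2, and 0.0121 and 0.0297 without cDC1 replicate 1 and T-bet+ replicate 2). A window 5944 bases downstream of the Ccl5 start was at 0.62 and 1.01 CPM in T-bet- cDC2s, 2.28 and 1.99 CPM in T-bet+ cDC2s and 2.73 and 3.53 CPM in cDC1s. It was lower in T-bet- cDC2s than cDC1s (-1.89 ± 0.48, adjusted p = 0.00165), a call lost in DESeq2 (adjusted p = 0.029) and without T-bet- replicate 1 or cDC1 replicate 2 (adjusted p 0.036 and 0.0325).

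In an intron of Ccl9, 1 window was called in both cDC2 subsets against cDC1s. That window, 1408 bases into the gene (chr11:83577154-83577303), stood at 9.25 and 8.91 CPM in T-bet- cDC2s, 7.4 and 5.12 CPM in T-bet+ cDC2s and 2.61 and 1.31 CPM in cDC1s. Against cDC1s it was higher in T-bet- (2.19 ± 0.35, adjusted p = 6e-07) and T-bet+ cDC2s (1.65 ± 0.36, adjusted p = 0.000143, and 0.0218 without cDC1 replicate 2). Between the cDC2 subsets, where the Ccl9 RNA was 16-fold apart, it did not pass (-0.54 ± 0.29, adjusted p = 0.257). The neighbouring window at 1129 bases, also in a Ccl9 intron, was higher in T-bet- cDC2s than cDC1s (1.98 ± 0.49, adjusted p = 0.00112, 0.0249 in DESeq2, and 0.0161 and 0.0184 without cDC1 replicate 1 and 2). Of the windows closest to Ccl9, that at 18035 bases downstream of the start, beyond the gene's end, was the other one called (chr11:83560527-83560676, 14.5 and 7.84 CPM for T-bet+ cDC2s, 6.66 and 7.9 CPM for T-bet- cDC2s, 4.16 and 4.44 CPM for cDC1s). It was higher in T-bet+ cDC2s than cDC1s (1.37 ± 0.30, adjusted p = 0.000124, and 0.0501 without T-bet+ replicate 1).

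Ccl3 and Ccl4 had no called window, although their RNA differed between T-bet+ cDC2s and both other spleen subsets. The window at -180 bases from the Ccl4 start (chr11:83662330-83662479) stood at 10.4 and 8.26 CPM in T-bet+ cDC2s, 6.66 and 8.3 CPM in T-bet- cDC2s and 7.6 and 6.79 CPM in cDC1s (T-bet+ against T-bet- 0.31 ± 0.26, adjusted p = 0.518). The window assigned to Ccl3, at -6513 bases, ranged from 2.47 to 4.66 CPM over the 6 libraries, with the subsets overlapping. For Ccl7, the window 2528 bases downstream of its start stood at 1.31 and 1.25 CPM in T-bet+, 3.45 and 2.23 CPM in T-bet- cDC2s and 1.9 and 1.7 CPM in cDC1s (-1.13 ± 0.45 between the cDC2 subsets, adjusted p = 0.095).

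Windows upstream of Ccl2 and Ccl6 that were not assigned to a member were added after their values had been seen and are given as a description. Upstream of Ccl2, introns of the non-coding gene Gm31522 held 10 windows, centred at -30725 to -18724 bases from the Ccl2 start. Of these, 6 (60%, against 6.28% of all windows) were lower in T-bet+ than T-bet- cDC2s, with a median log2 fold change of -1.42 over the 10. Against cDC1s, 5 (50%, against 17.9% of all windows) were higher in T-bet- cDC2s. Of these 5 calls, those starting at 82006851, 82007106 and 82016571 were lost without 1 or more libraries, in fits with 1 library in a group. Between cDC2 subsets, those starting at 82004772 and 82004930 did not pass in DESeq2 (adjusted p = 0.0116 and 0.16). Of the 6, those starting at 82004772, 82004930 and 82016571 were each lost without 1 or 2 of the cDC2 libraries (T-bet- replicate 1, T-bet+ replicate 2, and either T-bet- or T-bet+ replicate 1, adjusted p 0.015 to 0.0217). The window at chr11:82006851-82007000 stood at 1.41 and 2.09 CPM in T-bet+ cDC2s, 8.38 and 10.6 CPM in T-bet- cDC2s and 3.92 and 2.22 CPM in cDC1s (T-bet+ against T-bet- -2.43 ± 0.35, adjusted p = 3.17e-07). Spleen Ccl2 RNA averaged 0.372 CPM in T-bet+ cDC2s, 5.72 CPM in T-bet- cDC2s and 9.09 CPM in cDC1s. It thus followed these windows between the cDC2 subsets and not between T-bet- cDC2s and cDC1s. A link of these windows to Ccl2 was not tested, and Gm31522 RNA is not given here. Between Ccl6 and Ccl3 lay 9 windows, 8 of them in introns of E230016K23Rik, of which 1 (chr11:83600723-83600872, at -7710 bases from the Ccl6 start) was lower in T-bet+ than T-bet- cDC2s, at 0.44 and 0.42 against 2.47 and 2.13 CPM (-2.38 ± 0.59, adjusted p = 0.00274). That call was lost without any of the 4 cDC2 libraries (adjusted p 0.014 to 0.028).

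**Figure D5:**
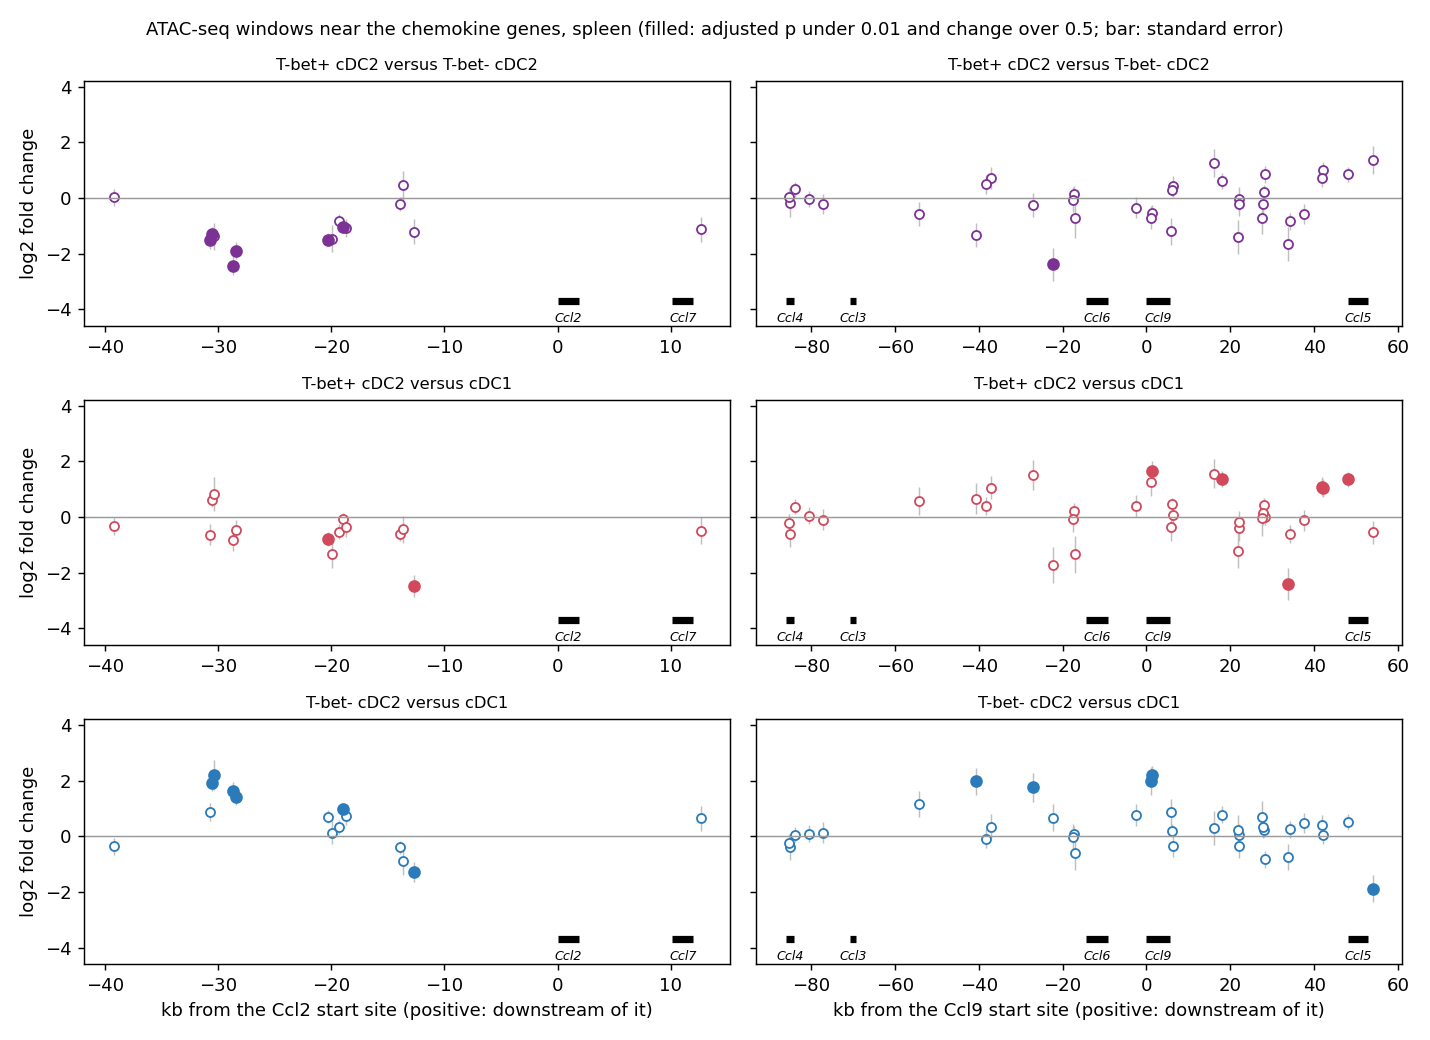
Log2 fold change of accessibility in windows near Ccl2 and Ccl7 (left) and near the 5 other genes (right), by distance in kb from the Ccl2 or Ccl9 start, 1 row per comparison, spleen. Bars are standard errors, filled points were called, and black bars are the genes. In the top row (T-bet+ against T-bet- cDC2s) the filled points are the windows upstream of Ccl2 and the one between Ccl6 and Ccl3, all below 0.

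The windows on which these differences rest are printed in the plus-strand direction of GRCm38.p6, from RefSeq, with motif matches in capitals: the Gm31522 intron window, the Ccl9 intron window, the E230016K23Rik intron window upstream of Ccl6, the window upstream of Ccl5 that was lower in T-bet+ cDC2s, and the window downstream of Ccl9 that was higher in them.
Gm31522 intron window: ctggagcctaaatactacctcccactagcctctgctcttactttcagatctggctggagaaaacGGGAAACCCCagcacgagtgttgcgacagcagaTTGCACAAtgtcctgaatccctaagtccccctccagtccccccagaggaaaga
Ccl9 intron window: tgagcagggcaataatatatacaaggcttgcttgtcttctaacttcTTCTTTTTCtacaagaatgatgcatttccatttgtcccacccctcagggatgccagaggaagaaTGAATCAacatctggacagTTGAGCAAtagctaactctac
E230016K23Rik intron window: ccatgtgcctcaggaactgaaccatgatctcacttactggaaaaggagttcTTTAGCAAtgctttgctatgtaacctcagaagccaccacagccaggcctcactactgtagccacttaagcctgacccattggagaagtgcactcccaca
Ccl5 upstream window: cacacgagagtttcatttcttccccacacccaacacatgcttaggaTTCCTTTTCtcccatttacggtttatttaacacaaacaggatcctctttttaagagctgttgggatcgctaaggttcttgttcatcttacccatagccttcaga
Ccl9 downstream window: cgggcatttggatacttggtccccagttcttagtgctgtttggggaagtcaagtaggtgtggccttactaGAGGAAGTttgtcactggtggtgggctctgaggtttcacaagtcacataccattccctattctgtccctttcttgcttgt
The Gm31522 window held an NF-kB match that reads on both strands and a C/EBP match, the Ccl9 intron window AP-1, IRF and C/EBP matches, the E230016K23Rik window a C/EBP match, the Ccl5 upstream window an IRF match and the Ccl9 downstream window a PU.1 match. Among the 33 windows closest to a member, 8 (24.2%) held the IRF motif, 5 (15.2%) C/EBP, 4 (12.1%) AP-1, 4 PU.1, 3 (9.09%) Runx and 2 (6.06%) each NF-kB, T-box and TATA. Of all 177956 windows, 5.61% held IRF, 5.89% C/EBP, 7.9% AP-1, 5.5% PU.1, 5.23% Runx, 4.7% NF-kB, 1.92% T-box and 6.12% TATA. Some of the 33 windows overlap and share matches.

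Over the whole interval, 207 of the 225 windows were tested. Between T-bet+ and T-bet- cDC2s 16 were called (7 higher, 9 lower), or 7.73% of those tested, against 6.28% of all windows. Between T-bet+ cDC2s and cDC1s 29 were called (14 higher, 15 lower), or 14% against 23%, and between T-bet- cDC2s and cDC1s 30 (12 higher, 18 lower), or 14.5% against 17.9%. With scaling by library size alone the split between T-bet+ cDC2s and cDC1s became 7 higher and 27 lower, as the median of all windows moved from -0.005 to -0.184 on the log2 scale.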

How the data were processed

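RNA-seq libraries (SMART-Seq v4) and ATAC-seq libraries of sorted splenic and MLN DCs were taken from the deposited tables. The counts are uniquely aligned whole reads per gene, made by the authors with HISAT2 2.1.0 and Rsubread on GRCm38 and GENCODE genes, and per 150-base window around peak summits, made with Bowtie2 2.2.5 on mm10 after shifting reads for the transposase. Peaks and summits were called with MACS2 2.1.1.20160309 on all libraries together and kept where reproducible. The score of the deposited peak list is 0 in every row, and the deposited summit list holds what its range and format give as −log10 p of the authors' MACS2 run. Both lists gave positions alone.

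Each tissue was fitted over its 3 subsets (all 16 RNA libraries for spleen against MLN and for the difference between tissues) with edgeR 4.0.16 in R 4.3.3: filterByExpr, TMM scaling, quasi-likelihood test, Benjamini-Hochberg adjustment over all features tested. Standard errors are the log2 fold change divided by the root of F. Residual degrees of freedom were 6 in spleen, 4 in MLN and 10 over both. Every adjusted p in the text is from edgeR unless DESeq2 (1.42.0) is named. RNA calls needed an adjusted p under 0.05, ATAC calls one under 0.01 with a change over 0.5 on the log2 scale. Code was tested on simulated data. The RNA depth was 20993220 to 29006549 reads per library, and each library is 1 replicate.

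The rule for named features took all 7 members, the window nearest to each start, up to 3 called member windows per comparison and direction, and for each member averaging 50 normalized counts the 3 genes most like it, with other genes only where a result turned on them. The windows about 6 kb upstream of Ccl5 were added to these after their values were seen. The members, marker lists and the windows in Gm31522 and between Ccl6 and Ccl3 were chosen with earlier results of these data known. Positions are from GENCODE M21, except those of the promoters and their motifs, which are from RefSeq. Library class was the sign of the Spearman correlation, over the genes of its tissue, of a library's deviation in log2 level with the GC content of the most GC-rich 100-base stretch (above 0.1 against below). Alternatives were DESeq2, its size factors, no filter, stricter ATAC thresholds, whole peaks, library size alone for ATAC, only the compared subsets, the library class, replicate blocks and leaving out each library.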

Additional observations from a re-analysis of the deposited data

Results flagged for a closer look

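Ccl9 is given here because its tissue difference had opposite signs in the cDC2 subsets. In T-bet- cDC2s every spleen library lay above every MLN library (log2 fold change 2.08), and in T-bet+ cDC2s every spleen library lay below (-1.04), a difference of -3.12 between the subsets. The difference did not pass over all genes in edgeR (adjusted p = 0.523) and did in DESeq2 (adjusted p = 0.0128). It rests on 2 MLN libraries of each subset, and how many of all genes were separated in this way was not counted.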

How the results depend on the processing

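Ccl2 and Ccl7 had few or no reads in single T-bet+ cDC2 libraries. The numbers of members called in the order spleen T-bet+ against T-bet- cDC2s (5), T-bet+ against cDC1s (6) and T-bet- against cDC1s (3) became 3 with library class as a term for the first and 5 without a filter on low counts for the last. Leaving out 1 library gave 3 to 5, 5 to 6 and 3 to 3. In MLN, the 0 between the cDC2 subsets became 1 (Ccl2) under DESeq2, without a filter and with a replicate block by the number in the library names, and stayed 0 without each library. The 5 against cDC1s in T-bet+ cDC2s became 2 in a fit of only the compared subsets and 3 with a replicate block (2 to 5 without 1 library), and the 3 in T-bet- cDC2s became 0 to 3. Between tissues, leaving out 1 library gave 1 to 5 of 7 in cDC1s, 0 to 5 in T-bet- cDC2s and 0 to 2 in T-bet+ cDC2s. The 0 for the difference between tissues became 2 under DESeq2 and without a filter, and 0 to 1 without 1 library.

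The called windows of the interval (16, 29 and 30 in the same order) became 8, 16 and 14 under DESeq2, 18 (T-bet+ against cDC1s) and 19 (T-bet- against cDC1s) at an adjusted p under 0.001 with a log2 change over 1, where the first count was 11, and 10 to 16, 19 to 35 and 18 to 34 without 1 library.

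Signs turned for values that had not passed. With the block by name number, Ccl5 in MLN moved to 0.10 (T-bet+ against T-bet- cDC2s) and to -0.12 (T-bet- against cDC1s). Without 1 library, Ccl5 ranged from -1.61 to 0.03 and Ccl6 from -0.66 to 0.41 between the MLN cDC2 subsets, Ccl5 from -1.41 to 0.20 (T-bet+) and from -0.22 to 0.64 (T-bet-) against MLN cDC1s. Between tissues, Ccl7 in cDC1s ranged from -0.05 to 0.44, Ccl2 in T-bet- cDC2s from -0.55 to 0.41, and in T-bet+ cDC2s Ccl7 from -4.97 to 1.23 and Ccl5 from -1.36 to 0.28. The difference between tissues ranged from -3.83 to 2.40 (Ccl7), -0.16 to 0.44 (Ccl3) and -0.50 to 0.33 (Ccl4). The causes were not tested.

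Over all genes, the calls between spleen cDC2 subsets were 774 against 1413 (DESeq2), 1521 (no filter) and 356 (replicate block), and 307 to 1257 without 1 library. In MLN they were 0 against 328 (DESeq2), 554 (no filter) and 14 (only the compared subsets) between cDC2 subsets, 952 against 2019, 2257 and 586 by the same alternatives and 539 (replicate block) for T-bet+ cDC2s and cDC1s, and 885 against 1730 (DESeq2), 2012 (no filter), 1060 (only the compared subsets) and 515 (replicate block) for T-bet- cDC2s and cDC1s. With the block by name number these 3 counts were 130, 2440 and 2477. Between tissues they were 1961 against 3513 and 3397 (cDC1), 1000 against 2243 and 2435 (T-bet-), 855 against 2704 and 2875 (T-bet+) and 1 against 39 and 186 (difference), for DESeq2 and no filter. Without 1 library, where each group kept 2 or more, they were 535 to 2948 (cDC1) and 390 to 1357 (T-bet-). In T-bet+ cDC2s they fell to 178 without spleen T-bet+ replicate 1. Within MLN, without 1 cDC1 library, they were 391 to 1101 (T-bet+ cDC2s against cDC1s) and 410 to 750 (T-bet- cDC2s against cDC1s). For windows, 10460, 38316 and 29773 became 4844, 23964 and 17142 under DESeq2 and 5080, 23893 and 17711 at the stricter threshold.

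Replicate numbers were not taken to pair the samples, since not every same-numbered pair deviated together (r over 0.1 in each): r was -0.737 to 0.427 in spleen, -0.139 to 0.658 in MLN and -0.206 to 0.113 in ATAC-seq. By the numbers in the MLN library names r was 0.139, 0.356, 0.622 and 0.658 in 4 pairs and -0.014 in 1, so a pairing there is a hint from the data, not from the labels. With the replicate block, 4 of the 5 spleen calls were kept between cDC2 subsets (Ccl4 adjusted p = 0.0525), Ccl7 against cDC1s was lost (adjusted p = 0.111), and 86 of 93 values kept their side of the threshold. With the crossed pairing, added after seeing the data, edgeR called 17 windows of the interval and 0 members in MLN. DESeq2 size factors changed no call of 70 values.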

Other observations

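Other genes and windows of the interval differed between the spleen subsets and were picked after their values had been seen. Wfdc17, a small secreted protein gene on the far side of Ccl4 from Ccl3, stood at 39.9, 31.5 and 35.5 CPM in T-bet+ cDC2s, 192, 203 and 127 CPM in T-bet- cDC2s and 8.34, 6.26 and 3.97 CPM in cDC1s (T-bet+ against T-bet- -2.29 ± 0.31, edgeR adjusted p = 0.00312). Like Ccl6 and Ccl9 it was highest in T-bet- cDC2s. In an intron of Ccl1, whose RNA was nearly absent, the window at chr11:82203803-82203952 stood at 5.33 and 5.02 CPM in T-bet+ cDC2s, 0.49 and 0.51 CPM in T-bet- cDC2s and 0.59 and 0.78 CPM in cDC1s (T-bet+ against T-bet- 3.33 ± 0.49, edgeR adjusted p = 4.31e-07), the opposite direction to the windows upstream of Ccl2.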
